A study of Mus musculus with 8 samples.

Results

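The mitochondrial carrier family, the proteins of the *Slc25a* genes, was examined in the H3K4me3 profiles of autochthonous lung tumor cells with and without *Gpx4*. The members are all peaks of the deposited H3K4me3 table whose gene symbol is Slc25a followed by a number. This rule, which uses names only and no measured value, gave 59 of the 35486 listed peaks, and these belong to 36 of the 20871 genes in the table. Both groups of mice carried the alleles of the KL lung tumor model, among them *Lkb1* fl/fl, and received intranasal Ad-Cre, which starts the tumors, and then tamoxifen. KL mice carried no further allele, whereas KLG4m/m mice were also homozygous for the *Gpx4*-rox-CAG-LSL-DreERT2 allele, in which Cre permits expression of a recombinase that removes exons 5 to 7 of *Gpx4* once tamoxifen is given, so that the loss is limited to cells that took up Cre. CD45-CD31-EpCAM+ tumor cells were sorted 10 weeks after Ad-Cre and gave 2 KL libraries (replicates 1 and 2) and 2 KLG4m/m libraries (replicates 3 and 4). The protocol speaks of 3 mice in total, whereas the legend of the paper's figure for these data gives 2 mice per group. Whether each library stands for a separate mouse is thus not settled, and p-values measure only the spread between these libraries. By the methods, the mice were 8 to 10 weeks old when given Ad-Cre, and the KL line had a C57BL/6 background. The H3K27ac libraries were not analysed here.

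Mitochondrial carriers are small proteins of the inner mitochondrial membrane that exchange nucleotides, phosphate, carboxylates, amino acids and cofactors between the cytosol and the matrix, and so couple the pathways on both sides of the membrane. They are encoded in the nucleus and imported after translation, and a few members lie in the outer membrane or in peroxisomes. H3K4me3, a histone mark of active and poised promoters, is found around the start sites of most expressed genes and shows promoter state rather than the amount of RNA or protein. GPX4 reduces lipid hydroperoxides with glutathione, which the mitochondrial matrix cannot make and imports through *Slc25a39* and its close relative *Slc25a40*.

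In the table, every peak is tied to 1 gene and to a distance from its start site, and the positions below are those of the table. The methods name Ensembl release 94, which is built on GRCm38, but of 30 carrier peaks that the table puts within 1 kb of a start and whose gene has a GRCm38.p6 start in RefSeq on the same chromosome, 1 lay within 1 kb of it. The positions are therefore given without a build. Of the 59 carrier peaks, 37 lay within 1 kb of a start site and 22 farther away, in classes that comprised 10 distal intergenic, 6 intronic, 4 promoter flank and 2 5′ untranslated region peaks. At least 1 peak within 1 kb was listed for 34 of the 36 genes, all but *Slc25a34* and *Slc25a41*. A single peak was listed for 21 genes and 2 or more for 15, with a maximum of 8 for *Slc25a25*. The carrier peaks took up 0.254 to 0.262% of the reads in the listed peaks of each library.

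The libraries held 3244495 to 3463731 reads in the listed peaks. The summed signal of 7 epithelial genes was 340 to 346 CPM (reads per 1000000 reads in listed peaks) in KL and 299 to 302 CPM in KLG4m/m. Of these, *Epcam*, the sort marker (log2 fold change -0.82), and *Cdh1* (-0.38) were lower past the threshold used below, and 5, the keratins and claudins, did not pass (-0.28 to 0.11). The summed signal of 12 leukocyte genes, 6 of which were higher past the threshold, was 357 to 369 CPM in KL and 460 to 475 CPM in KLG4m/m, and peaks were listed for *Ptprc* but not for *Cd79a*, *Tyrobp* or *Laptm5*. That of 7 alveolar type 2 genes, 4 of which were lower, was 267 to 276 CPM in KL and 203 to 214 CPM in KLG4m/m, with no listed peak for *Sftpc* or *Slc34a2*. Endothelial genes were at 233 to 271 and 227 to 249 CPM (1 of 8 lower) and fibroblast genes at 64.6 to 71.7 and 69.5 to 72.8 CPM (1 of 3 higher). These shifts accompany every comparison below, and their part in the results was not tested. In such bulk libraries, fewer cells of a type and less signal per cell cannot be told apart. The *Gpx4* promoter peak itself, which is outside the deleted exons and thus does not check the knockout, was at 69.6 and 68.0 CPM in KL and 88.2 and 93.2 CPM in KLG4m/m.

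Promoter sequences were taken from RefSeq (GRCm38.p6), from 250 bases before to 50 bases after a start site. Such windows were found for 28 of the 36 carrier genes, 37 windows in all because some genes have several starts. They are shown for the carrier promoter with the strongest mark (*Slc25a16*), the one with the weakest (*Slc25a48*), the promoter among them that fell past the threshold (*Slc25a12*) and that of the glutathione carrier *Slc25a39*, so that the mark can be read beside the base composition. Each is written 5′ to 3′ on the strand of the gene, with CpG dinucleotides, which are frequent in unmethylated promoters and are bound by a subunit of some H3K4 methyltransferase complexes, in capitals.
Slc25a16, chr10:62920383-62920682, plus strand: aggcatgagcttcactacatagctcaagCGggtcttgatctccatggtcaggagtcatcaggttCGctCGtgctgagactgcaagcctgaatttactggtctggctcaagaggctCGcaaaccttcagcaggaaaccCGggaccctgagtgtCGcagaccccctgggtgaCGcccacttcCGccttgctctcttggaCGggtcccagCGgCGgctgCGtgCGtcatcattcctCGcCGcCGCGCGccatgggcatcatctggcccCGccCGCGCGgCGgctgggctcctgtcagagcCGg
Slc25a12, chr2:71367706-71368005, minus strand: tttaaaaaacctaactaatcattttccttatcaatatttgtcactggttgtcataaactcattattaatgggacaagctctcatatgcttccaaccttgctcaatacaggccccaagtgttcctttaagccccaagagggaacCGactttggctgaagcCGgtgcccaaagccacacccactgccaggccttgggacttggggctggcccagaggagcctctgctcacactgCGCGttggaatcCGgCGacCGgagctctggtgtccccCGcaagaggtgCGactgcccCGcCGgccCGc
Slc25a39, chr11:102407468-102407767, minus strand: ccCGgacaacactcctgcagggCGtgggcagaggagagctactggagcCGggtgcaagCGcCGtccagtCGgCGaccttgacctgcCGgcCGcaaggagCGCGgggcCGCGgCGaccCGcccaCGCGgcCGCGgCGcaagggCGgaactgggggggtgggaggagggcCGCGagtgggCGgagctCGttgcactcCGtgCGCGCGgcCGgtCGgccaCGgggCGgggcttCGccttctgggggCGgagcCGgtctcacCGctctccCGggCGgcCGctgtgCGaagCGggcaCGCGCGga
Slc25a48, chr13:56438105-56438404, plus strand: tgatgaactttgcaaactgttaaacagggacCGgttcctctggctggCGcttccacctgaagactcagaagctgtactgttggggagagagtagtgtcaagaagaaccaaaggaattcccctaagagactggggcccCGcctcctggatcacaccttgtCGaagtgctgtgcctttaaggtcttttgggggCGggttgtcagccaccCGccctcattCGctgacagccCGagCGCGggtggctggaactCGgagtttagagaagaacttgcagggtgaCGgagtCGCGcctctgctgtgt

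The 4 windows held 24 (*Slc25a16*), 12 (*Slc25a12*), 45 (*Slc25a39*) and 14 (*Slc25a48*) CpG dinucleotides, with mean H3K4me3 signals at the peaks of 108, 63.6, 77.2 and 5.46 CPM, so that the order of the CpG counts was not that of the signals. Over the 21 carrier genes with 1 window and a peak within 1 kb, the CpG count and the signal of the highest such peak had a Pearson's r of 0.315 and a Spearman's rho of 0.299, a description across genes that share the same 4 libraries. The median carrier window held 15 CpG dinucleotides, against 18 in the windows of all genes with a peak within 1 kb and 7 in all 32851 windows.

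Exact matches to short motifs were counted on both strands of the carrier windows, of which those of *Slc25a14* and of *Slc25a23* overlap one another and were counted separately. Shares are given in this order: carrier windows, all windows, and windows of genes with a peak within 1 kb. The antioxidant response element core TGACNNNGC was in 11 windows of 8 genes (29.7, 12.4 and 14.1%), among them *Slc25a3*, *Slc25a5*, *Slc25a25* and *Slc25a38*. The E-box CACGTG was in 6 windows (16.2, 7.15 and 9.23%), those of *Slc25a1*, *Slc25a13*, *Slc25a14*, *Slc25a33* and *Slc25a36*. The cAMP response element TGACGTCA was in 2 windows (5.41, 1.79 and 2.55%). The TATA box TATAAA (2.7, 13.6 and 8.15%), the ETS motif CCGGAAGT (2.7, 3.89 and 6.07%) and the YY1 motif AAGATGGCG (2.7, 1.4 and 2.1%) were each in 1. The NRF1 motif GCGCATGCG (0, 1.75 and 2.86%) and the ERR motif TCAAGGTCA (0, 0.423 and 0.257%) were in 0 carrier windows. These are matches of letters only. Of the 4 genes called below, windows were at hand for *Slc25a12* and *Slc25a34*, and neither held any of the motifs.

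Carrier promoters carried a strong mark. The 37 peaks within 1 kb had a median of 63.5 CPM (quartiles 44.8 and 77.2), against 41.2 CPM over all 17073 listed peaks within 1 kb, whereas the 22 peaks farther away had a median of 8.49 CPM. The highest promoter peak, that of *Slc25a16*, a carrier linked to coenzyme A, was at 123 and 103 CPM in KL and 102 and 105 CPM in KLG4m/m. The groups overlapped there. The lowest promoter peak was that of *Slc25a48*, a carrier linked to choline, at 4.60 and 4.90 CPM in KL and 5.51 and 6.81 CPM in KLG4m/m. One strong peak was not at a start site: 14.1 kb upstream of *Slc25a21*, the oxodicarboxylate carrier, a distal intergenic peak (chr12:57258311-57258711) held 205 and 224 reads in KL and 175 and 208 reads in KLG4m/m, several times the reads of the promoter peak of the same gene (43 and 61 reads in KL and 64 and 45 reads in KLG4m/m).

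**Figure D1:**
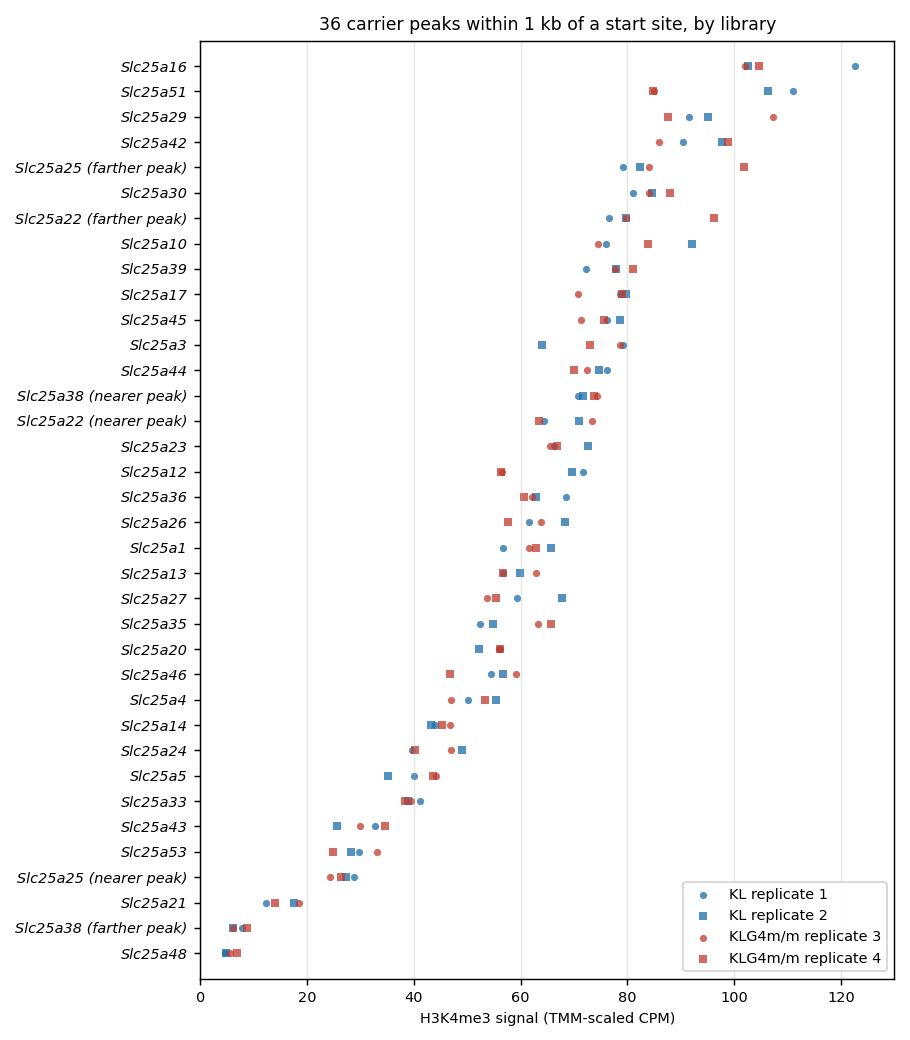
H3K4me3 signal (TMM-scaled CPM, horizontal axis) of 36 of the 37 carrier peaks within 1 kb of a start site (vertical axis, ordered by mean), with 1 point per library, blue for KL and red for KLG4m/m. The means run from 5.46 CPM at *Slc25a48* to 108 CPM at *Slc25a16*, and at *Slc25a51* and *Slc25a12* both red points lie left of both blue points.

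Whether the loss of *Gpx4* went with a change of H3K4me3 at carrier genes was examined by the quasi-likelihood F test of edgeR (2-sided) on the reads of all listed peaks. P-values were adjusted over the whole table by the Benjamini-Hochberg method, and an adjusted p under 0.05 was taken as past the threshold. Among the 59 carrier peaks, 4 were lower in KLG4m/m past the threshold (6.78%), against 5.52% of all listed peaks, and 0 were higher, against 3.1% of all peaks. At an unadjusted p under 0.05, 4 carrier peaks were lower (against 13.5% of all peaks) and 4 were higher (against 11.2%). DESeq2, which called 0.688% of all peaks lower and 0.093% higher, called 0 carrier peaks in either direction, and it gave no adjusted p for 12 of the 59. When reads were summed by gene, 4 of 36 genes were lower (11.1%, against 9.63% of all genes) and 0 were higher (against 5.38% of all genes), and 1 was higher at an unadjusted p under 0.05, *Slc25a35* (against 12.4% of all genes). DESeq2 called 0 carrier genes in either direction, against 1.61% of all genes lower and 0.57% higher, and gave no adjusted p for 2 of the 36. Both KLG4m/m libraries were below both KL libraries at 15 carrier peaks (25.4%, against 26.6% of all peaks) and above them at 11 (18.6%, against 27.5%). Past the edgeR threshold, the shares of lower carrier peaks and genes were thus close to those over the whole table. The shares of higher ones were below it, as were the shares given above at an unadjusted p under 0.05. Whether these shares differ was not tested. The median log2 fold change (KLG4m/m over KL) was 0.005 over the carrier genes and 0.002 over all genes.

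*Slc25a51*, the mitochondrial NAD+ carrier, had the clearest fall at a promoter. Its peak over the start site (chr4:45408628-45409028) held 386 and 369 reads in KL and 293 and 274 reads in KLG4m/m, or 109 ± 3.36 CPM and 84.9 ± 0.0956 CPM (SD, n = 2 each). The groups did not overlap, and the log2 fold change was -0.36 (SE 0.0869, edgeR adjusted p = 0.0105). A peak 43.8 kb upstream of its start, in intron 3 of *Shb*, had 69 and 75 reads in KL and 55 and 54 reads in KLG4m/m, a log2 change of -0.34 (edgeR adjusted p = 0.249). A peak in intron 2 of *Slc25a51*, which the table assigns to *Gm54219*, had a log2 change of -0.22 (edgeR adjusted p = 0.570). Summed over both of its own peaks, *Slc25a51* fell by 0.36 on the log2 scale (SE 0.0820, edgeR adjusted p over all genes 7.81e-04).

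*Slc25a12*, the aspartate/glutamate carrier known as aralar, which takes part in the malate-aspartate shuttle, fell at its promoter. The peak (chr2:71197646-71198046) held 249 and 242 reads in KL and 195 and 182 reads in KLG4m/m, or 70.7 ± 1.36 and 56.5 ± 0.141 CPM (SD, n = 2 each). The log2 fold change was -0.32 (SE 0.103, edgeR adjusted p = 0.0484), with no overlap between the groups. Its other peaks held 21 to 43 reads per library. One, in a 5′ untranslated region, had a log2 change of 0.38 (edgeR adjusted p = 0.414). It lay 29.2 kb from the promoter peak and 5.02 kb downstream of another start of the gene. The other, 8.65 kb upstream of the start at the promoter, had -0.44 (edgeR adjusted p = 0.276). Beyond it, a distal peak of *Hat1* 16.5 kb from the promoter peak had 22 and 29 reads in KL and 14 and 10 reads in KLG4m/m (log2 change -1.02, edgeR adjusted p = 0.0655), whereas the *Hat1* promoter was at -0.02. The paralog *Slc25a13*, or citrin, which carries the same substrates, held 56.7 and 59.9 CPM in KL and 62.9 and 56.7 CPM in KLG4m/m at its promoter, with a log2 fold change of 0.04 (SE 0.109, edgeR adjusted p = 0.865). Whether the paralogs differed from each other was not tested.

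The other falls were larger but lay away from start sites, at peaks with few reads. *Slc25a41*, an ATP-Mg/phosphate carrier, had 1 listed peak (chr17:57345480-57345880), 2.77 kb downstream of its start. It held 28 and 28 reads in KL and 10 and 11 reads in KLG4m/m, or 8.06 and 8.07 CPM against 2.90 and 3.41 CPM. The log2 fold change was -1.35 (SE 0.342, edgeR adjusted p = 0.0139). The promoter of *Slc25a23*, a carrier of the same kind whose peak lies 21.8 kb away, held 66.2 and 72.6 CPM in KL and 65.5 and 66.9 CPM in KLG4m/m, a log2 change of -0.07 (edgeR adjusted p = 0.727). *Slc25a34*, whose substrate is unsettled, likewise had 1 listed peak (chr4:141369091-141369491), which lies 17.9 kb upstream of its start in a region annotated as a 5′ untranslated region. It held 35 and 29 reads in KL and 17 and 9 reads in KLG4m/m, a log2 fold change of -1.24 (SE 0.328, edgeR adjusted p = 0.0184). Of the 7 other listed peaks within 50 kb of it, 5 had a log2 fold change below 0, and the nearest, 10.1 kb away in intron 1 of *Plekhm2*, was at -1.24 (edgeR adjusted p = 0.0540). Since each peak is given 1 gene, the signal at this position need not belong to *Slc25a34*.

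Without KLG4m/m replicate 3 or without KLG4m/m replicate 4, 0 of all 35486 listed peaks passed the threshold (lowest edgeR adjusted p 0.307 and 0.337), so these fits, in which the lone KLG4m/m library is assumed to vary like the KL libraries, could not keep a call at any peak. Without KL replicate 1 the peak of *Slc25a41* passed, and without KL replicate 2 those of *Slc25a51* and *Slc25a34* did. In the fits that left out 1 library each, the log2 fold changes kept their sign and ran from -0.39 to -0.32 at *Slc25a51*, from -0.34 to -0.30 at *Slc25a12*, from -1.46 to -1.24 at *Slc25a41* and from -1.72 to -0.89 at *Slc25a34*. Under DESeq2 all 4 log2 fold changes were again below 0. It gave adjusted p = 0.275 at *Slc25a51* and 0.558 at *Slc25a12*, and none at *Slc25a41* and *Slc25a34*.

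**Figure D2:**
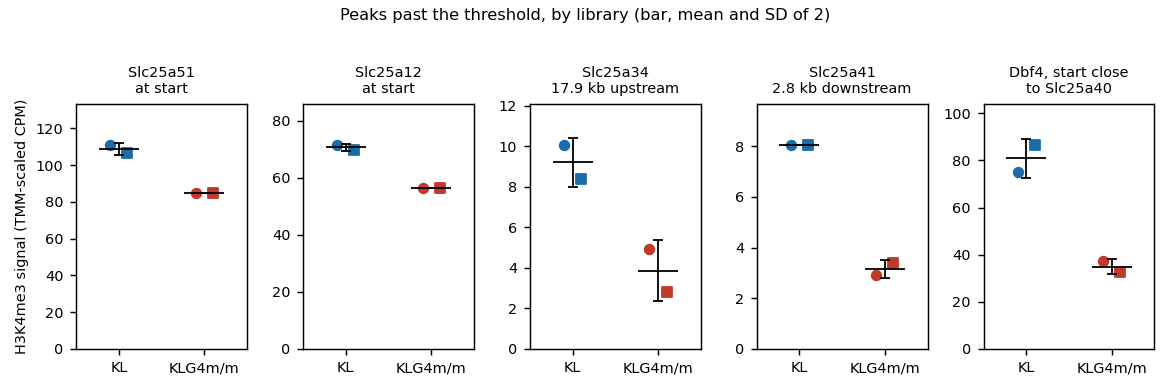
H3K4me3 signal (TMM-scaled CPM, vertical axes from 0, a scale for each panel) in each library at the 4 carrier peaks past the threshold and at the *Dbf4* promoter peak, whose start lies close to that of *Slc25a40*. Blue points are KL and red points KLG4m/m libraries, circles replicates 1 and 3, squares replicates 2 and 4, and black bars the mean and SD of 2; in every panel both red points lie below both blue points.

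Beyond these calls, the carriers were described by what they transport. Of the 7 genes for adenine nucleotides and phosphate, 1 was lower (*Slc25a41*) and 6 did not pass the threshold. The ADP/ATP carrier *Slc25a4* had a summed signal of 61.4 and 67.1 CPM in KL and 56.4 and 60.8 CPM in KLG4m/m (log2 fold change -0.13, SE 0.110, edgeR adjusted p = 0.442). Its paralog *Slc25a5* was at 47.3 and 40.0 CPM in KL and 50.3 and 50.0 CPM in KLG4m/m (log2 fold change 0.20, SE 0.126, edgeR adjusted p = 0.298). Both had summed signals that did not overlap between the groups, in opposite directions, with differences under 2 standard errors. At the promoter peak of *Slc25a4* alone the groups overlapped (log2 change -0.07, edgeR adjusted p = 0.745). At that of *Slc25a5* they did not (0.22, edgeR adjusted p = 0.293). The phosphate carrier *Slc25a3* overlapped between the groups, at 84.5 and 67.7 CPM in KL and 83.4 and 76.2 CPM in KLG4m/m (log2 fold change 0.07, SE 0.0998, edgeR adjusted p = 0.690).

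*Slc25a25*, an ATP-Mg/phosphate carrier, had the highest summed signal of all carriers, 181 and 182 CPM in KL and 175 and 195 CPM in KLG4m/m (log2 fold change 0.03, SE 0.0670, edgeR adjusted p = 0.846), spread over 8 peaks. Its strongest peak, within 1 kb of a start site (chr2:32342001-32342401), held 79.1 and 82.4 CPM in KL and 84.1 and 102 CPM in KLG4m/m, a log2 change of 0.20 (edgeR adjusted p = 0.206). The peak at another start of the gene (chr2:32313406-32313806) was weaker, at 28.8 and 27.4 CPM in KL and 24.4 and 26.3 CPM in KLG4m/m, a log2 change of -0.15 (edgeR adjusted p = 0.592). Its further 6 peaks had log2 fold changes of -0.43 to 0.32, and none passed the threshold.

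Of the 8 genes for pyrimidine nucleotides and cofactors, 1 was lower (*Slc25a51*) and 7 did not pass, with a median of -0.09 over the 8. Of these, the coenzyme A carriers *Slc25a16* and *Slc25a42*, the peroxisomal *Slc25a17*, the S-adenosylmethionine carrier *Slc25a26* and the pyrimidine nucleotide carriers *Slc25a33* and *Slc25a36* had summed log2 fold changes of -0.13 to 0.05.

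The 4 genes for carboxylates and acylcarnitine all stayed short of the threshold. The citrate carrier *Slc25a1*, which supplies citrate for lipid synthesis in the cytosol, was at 56.8 and 65.6 CPM in KL and 61.6 and 62.6 CPM in KLG4m/m (log2 fold change 0.02, SE 0.110, edgeR adjusted p = 0.928). The carnitine/acylcarnitine carrier *Slc25a20*, which admits fatty acids for oxidation, was at 56.2 and 52.1 CPM in KL and 56.1 and 55.8 CPM in KLG4m/m (log2 fold change 0.05, SE 0.116, edgeR adjusted p = 0.836). In both, the groups overlapped. The dicarboxylate carrier *Slc25a10* and *Slc25a21* had log2 fold changes of -0.09 and -0.06.

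Of the 6 amino acid carriers, 1 was lower (*Slc25a12*) and 5 did not pass. The glutamate carrier *Slc25a22* had a summed signal of 141 and 151 CPM in KL and 153 and 159 CPM in KLG4m/m, which do not overlap, but the log2 fold change was 0.10 (SE 0.0725, edgeR adjusted p = 0.385). Its 2 promoter peaks were at 0.02 and 0.17, neither past the threshold. *Slc25a29*, *Slc25a38* and *Slc25a44*, carriers of basic amino acids, glycine and branched-chain amino acids, had log2 fold changes of -0.05 to 0.06.

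Of the iron and glutathione carriers, *Slc25a39* had a listed peak, over its start site (chr11:102299249-102299649). It held 251 and 270 reads in KL and 268 and 262 reads in KLG4m/m, or 72.2 and 77.8 CPM against 77.7 and 81.1 CPM. The groups overlapped narrowly, and the log2 fold change was 0.08 (SE 0.0957, edgeR adjusted p = 0.640), and from 0.03 to 0.14 when 1 library was left out. The uncoupling protein-like *Slc25a14*, *Slc25a27* and *Slc25a30* (0 of 3 called) had log2 fold changes of 0.07, -0.22 and 0.05. Of the 7 carriers of unsettled or other role, 1 was lower (*Slc25a34*) and 6 did not pass. *Slc25a35* was at 52.5 and 54.7 CPM in KL and 63.4 and 65.4 CPM in KLG4m/m, without overlap (log2 fold change 0.26, SE 0.112, unadjusted p = 0.0202 and adjusted p = 0.0970 in edgeR). *Slc25a48*, with the lowest summed signal of all 36 genes, had a log2 fold change of 0.37 from 16 to 22 reads per library (SE 0.353, edgeR adjusted p = 0.530).

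**Figure D3:**
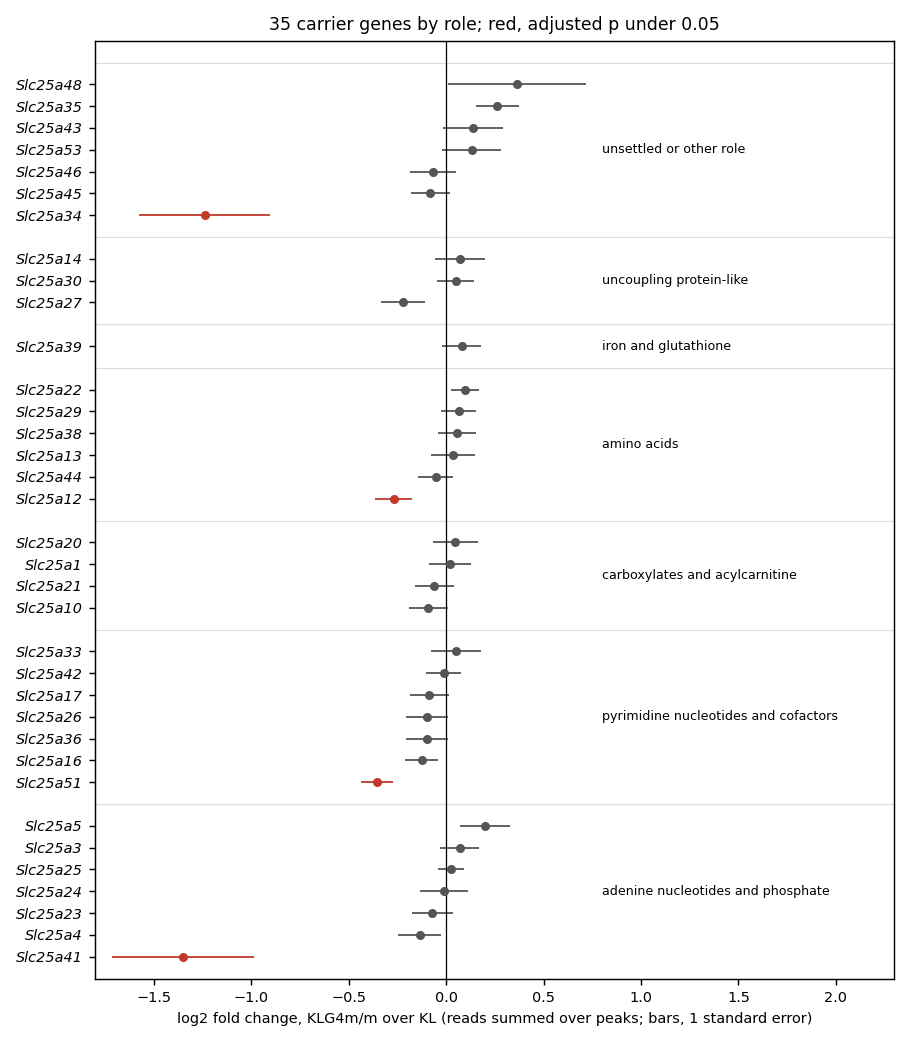
log2 fold change of H3K4me3 (KLG4m/m over KL, horizontal axis) for 35 of the 36 carrier genes, with reads summed over the peaks of each gene and bars of 1 standard error, grouped by role on the vertical axis. The 4 genes past the threshold (red) lie left of 0, at -1.35, -1.24, -0.36 and -0.27, and the 31 others drawn (grey) between -0.22 and 0.37.

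Most carrier promoters had values near 0. Of the 37 carrier peaks within 1 kb, 25 had a log2 fold change within 0.1 of 0 (67.6%) and 33 within 0.25 (89.2%). Their values ran from -0.36 to 0.37. The SD of their log2 fold changes was 0.147, against 0.402 over all 17073 peaks within 1 kb. Of all these peaks, 30.3% were within 0.1 of 0 and 63.2% within 0.25. Strong peaks vary less, so the same was computed for peaks within 1 kb that had 44.8 to 77.2 CPM, the range between the quartiles of the carriers. In that range 16 of 19 carrier peaks (84.2%) were within 0.1 of 0, against 39.2% of 4925 peaks. Within 0.25 of 0 were 17 carrier peaks (89.5%), against 77.5%, and the SDs were 0.127 and 0.229. These shares are a description, for which no test was made.

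**Figure D4:**
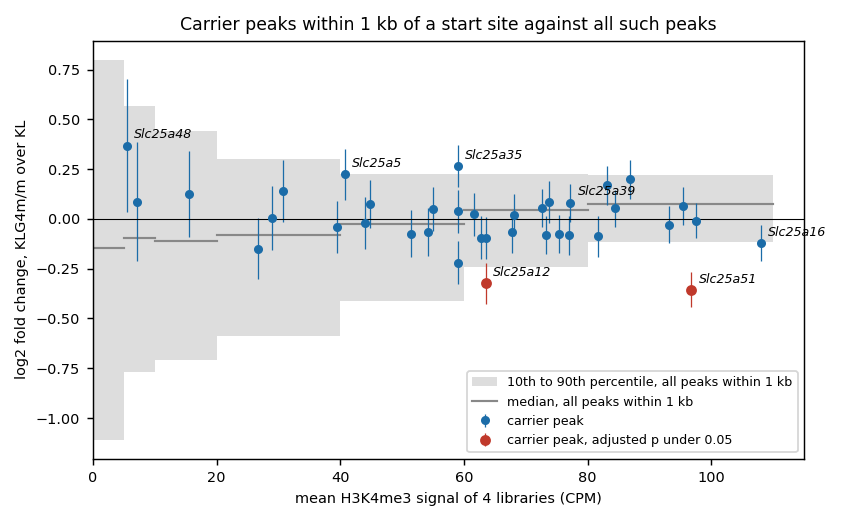
log2 fold change (KLG4m/m over KL, vertical axis, bars of 1 standard error) against the mean H3K4me3 signal of the 4 libraries (CPM, horizontal axis) for the 37 carrier peaks within 1 kb of a start site. Grey bands give the 10th to 90th percentile and grey lines the median of all such peaks in 7 ranges of signal. Inside the bands lie 33 of the carrier peaks. *Slc25a51* at -0.36, *Slc25a12* at -0.32 and *Slc25a16* at -0.12 lie below them, and *Slc25a35* at 0.27 lies above.

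Peaks away from start sites varied more, with an SD of 0.559 over the 22 carrier peaks beyond 1 kb, close to the 0.522 of all listed peaks there. At these peaks the median SE of the log2 fold change was 0.270, against 0.106 at the 37 promoter peaks. The highest value was at *Slc25a53*, where an intronic peak (chrX:135886927-135887327) lay 5.71 kb downstream of a start. It held 8 and 7 reads in KL and 21 and 13 reads in KLG4m/m, a log2 change of 1.22 (edgeR adjusted p = 0.0838). The promoter peak listed for the gene (chrX:135938632-135939032) lay at another start and was at 0.00. *Slc25a33* had an intronic peak at 0.72 (unadjusted p = 0.0395 and adjusted p = 0.178 in edgeR) and a promoter peak at -0.04. Whether the peaks of a gene changed by different factors was tested with edgeR's diffSpliceDGE, with each peak treated as an exon. Among the 15 carriers with 2 or more peaks, 0 passed the threshold by the F test, against 9.32% of the 7617 such genes in the table. The count was also 0 by Simes' method, for which no share over all such genes is at hand. At an unadjusted p under 0.05 there were 2 (against 24.6% of such genes), *Slc25a53* (adjusted p = 0.0863) and *Slc25a33* (adjusted p = 0.185).

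**Figure D5:**
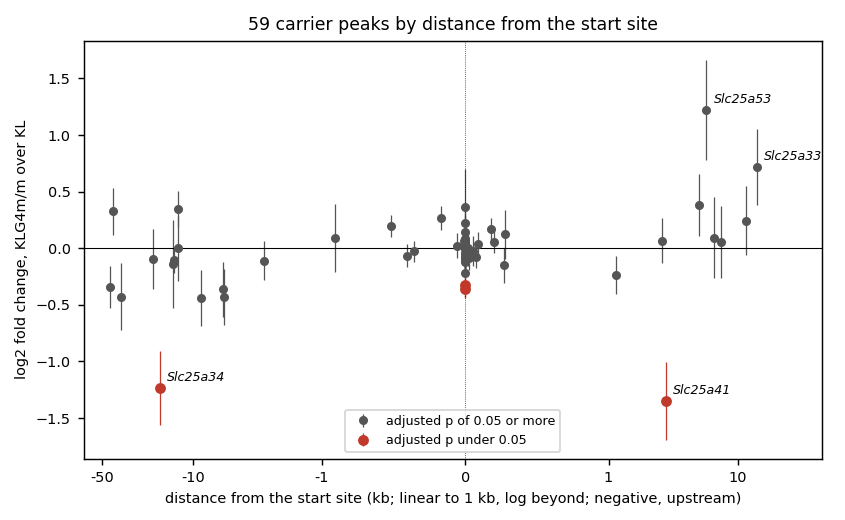
log2 fold change (KLG4m/m over KL, vertical axis, bars of 1 standard error) of the 59 carrier peaks against the distance from the start site (kb, linear to 1 kb and logarithmic beyond, negative upstream). Values near the start lie close to 0, and those of *Slc25a34*, *Slc25a41*, *Slc25a53* and *Slc25a33*, from -1.35 to 1.22, belong to peaks 2.77 to 17.9 kb away.

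The rule by symbol does not take in a promoter that the table assigns to a neighbour. The RefSeq gene table holds 47 carrier symbols, and 11 of these, *Slc25a2*, *Slc25a11*, *Slc25a15*, *Slc25a18*, *Slc25a28*, *Slc25a31*, *Slc25a32*, *Slc25a37*, *Slc25a40*, *Slc25a47* and *Slc25a54*, were not analysed under their own names. No RefSeq window was at hand for *Slc25a2*, *Slc25a32* and *Slc25a37*, so their neighbours could not be looked up. In the RefSeq windows, 4 of the 11 start within 1 kb of another gene that runs the opposite way. The peaks at those genes were looked up after the carriers' own values had been seen. *Slc25a40*, the relative of the glutathione carrier *Slc25a39*, starts 122 bases from *Dbf4*, which encodes the regulatory subunit of a kinase that starts DNA replication. Its window is shown because it spans both starts, with capitals from the start of *Dbf4* (position 129 of the window) to that of *Slc25a40* (position 251).
Slc25a40, chr5:8422588-8422887, plus strand: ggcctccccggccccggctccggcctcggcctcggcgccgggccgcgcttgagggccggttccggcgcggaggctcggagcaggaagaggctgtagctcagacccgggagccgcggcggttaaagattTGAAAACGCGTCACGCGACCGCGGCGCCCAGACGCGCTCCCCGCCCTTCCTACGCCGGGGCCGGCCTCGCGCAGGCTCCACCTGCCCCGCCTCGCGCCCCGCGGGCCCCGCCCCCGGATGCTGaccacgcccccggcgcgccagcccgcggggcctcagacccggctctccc

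The peak over the start of *Dbf4* (chr5:8472621-8473021 in the table) held 261 and 301 reads in KL and 128 and 105 reads in KLG4m/m, or 75.1 and 86.7 CPM against 37.1 and 32.5 CPM. The groups were far apart, and the log2 fold change was -1.21 (SE 0.119, edgeR adjusted p = 3.60e-07), larger than at any carrier promoter peak. It passed the threshold under DESeq2 and in 7 of 9 alternatives in all, the exceptions being the fits without KLG4m/m replicate 3 or replicate 4, in which no listed peak passed. Leaving out any 1 library gave a log2 fold change from -1.32 to -1.11. Whether this mark belongs to *Dbf4*, to *Slc25a40* or to both cannot be told apart, and the position of the peak was not carried over to GRCm38.p6. The peaks at the neighbours of *Slc25a15*, *Slc25a11* and *Slc25a28* did not pass the threshold: *1810012K16Rik* beside *Slc25a15* had a log2 change of -0.25 (edgeR adjusted p = 0.155), *Rnf167* beside the oxoglutarate carrier *Slc25a11* 0.11 (edgeR adjusted p = 0.587), and *BC037704* beside *Slc25a28*, or mitoferrin-2, 0.07 (edgeR adjusted p = 0.643). Among carriers that have a listed peak, 1 of the starts of *Slc25a53* lies within 1 kb of 2 starts of *Zcchc18*, which runs the opposite way. The *Zcchc18* promoter peak (chrX:135893217-135893617 in the table) held 64 and 62 reads in KL and 95 and 86 reads in KLG4m/m. The groups did not overlap, and the log2 fold change was 0.58 (SE 0.167, edgeR adjusted p = 0.0300). It passed in 4 of 9 alternatives, but not under DESeq2 (adjusted p = 0.495) or without KL replicate 1 (edgeR adjusted p = 0.0895) or KL replicate 2 (edgeR adjusted p = 0.140). To which gene this mark belongs cannot be told apart either.

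Other genes of mitochondrial transport were counted in the same way, against 9.63% of all genes lower and 5.38% higher. Of 4 carrier family genes with other names, *Ucp3* (log2 fold change -0.74, edgeR adjusted p = 0.0165) and *Mtch2*, which inserts proteins into the outer membrane (-0.36, edgeR adjusted p = 0.0235), were lower, and *Ucp2*, an uncoupling protein, was higher (0.20, edgeR adjusted p = 0.0288). Of 21 other genes of inner membrane transport, such as the pyruvate carrier and the calcium uniporter, 3 were lower and 0 higher. These were *Abcb10* (-0.56, edgeR adjusted p = 3.7e-05), *Mcur1* (-0.40, edgeR adjusted p = 0.00168) and *Micu3* (-0.49, edgeR adjusted p = 0.00670), of which *Mcur1* and *Micu3* regulate calcium uptake. Of the 3 outer membrane channel genes, *Vdac3* was lower (-0.43, edgeR adjusted p = 0.0039). Of 8 genes of the machinery that imports the carriers, 0 were called in either direction, with log2 fold changes of -0.33 to 0.22. Of the 7 genes called here, only *Abcb10* passed under DESeq2. *Mcur1*, *Micu3*, *Ucp2*, *Ucp3* and *Mtch2* did not pass without KL replicate 1, and *Vdac3*, *Ucp3* and *Mtch2* did not pass without KL replicate 2. All 7 kept their sign in each of 10 alternatives.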

How the data were processed

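H3K4me3 was profiled in sorted tumor cells, in 2 KL and 2 KLG4m/m libraries. The labels and the methods name a CUT&Tag kit and describe digestion with pAG-MNase. The authors trimmed reads with Trim Galore 0.6.10, mapped them with BWA 0.7.15, removed duplicates with Picard 2.17.3, called peaks with MACS2 2.2.7.1 and annotated them with HOMER 4.11.1; these versions are from the submitters' processing notes. How peaks were merged and which test was used are not given in the sources used here. The authors deposited whole-number counts of reads per peak and CPM scaled to the reads in listed peaks, so these values cannot show a change by 1 common factor. The deposited columns of the authors' own comparison (fold changes and p-values) were not used.

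Counts were scaled with TMM and tested with glmQLFit and glmQLFTest (edgeR 4.0.16, R 4.3.3), over all peaks and over all genes after summing, with no filter or covariate. The tests were run on simulated counts. The changes put in there were larger than those at the promoters of *Slc25a51* and *Slc25a12*. They were put at peaks with more reads than those of *Slc25a41* and *Slc25a34*, so this check does not bear on the carrier calls. With 2 libraries a group, an exact permutation test allows 3 splits and a smallest p of 0.333, so the calls depend on variance estimates that edgeR pools over features. Alternatives were DESeq2 1.42.0, total-read scaling, limma 3.58.1 on log2(CPM + 1), also with a pseudocount of 0.25 or 4 or with each library centred on its median, a mean of at least 10 CPM, an unadjusted p, an added 1.5-fold change, the peak nearest the start site, and leaving out each library.

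The members and lists were chosen with earlier results of these data known. Values by library are given for members past the threshold, the iron, glutathione, ADP/ATP, phosphate, citrate and acylcarnitine carriers, and the 3 highest and 3 lowest genes; the values of other members by library were chosen after they were seen, as were the peaks at neighbouring genes. Values that fall under this rule for 1 of the genes are not reported here.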

Additional observations from a re-analysis of the deposited data

How the results depend on the processing

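No paired analysis was possible because the KL libraries are replicates 1 and 2 and the KLG4m/m libraries replicates 3 and 4, which share no number. The counts of carriers with lower signal moved with the setting. DESeq2 called 0 peaks and 0 genes lower, with no adjusted p for 12 of 59 peaks, those of *Slc25a34* and *Slc25a41* included, and for 2 of 36 genes. A mean of at least 10 CPM, which leaves out the only peaks of *Slc25a34* and *Slc25a41*, left 2 peaks and 2 genes lower. Over the whole table, 2675 of 20543 peaks and 2821 of 16260 genes were called in either direction with this filter. An added 1.5-fold change, which *Slc25a51* and *Slc25a12* did not reach, also left 2 peaks and 2 genes lower. For that rule no count over the whole table is at hand. With each library left out in turn, fewer peaks and genes were called, among the carriers as over the whole table. The fits without a KLG4m/m library could not call any listed peak or gene, so they say nothing about the carriers' calls. The count of higher peaks was 4 at an unadjusted p under 0.05 and that of higher genes 1. Centring each library on its median gave 1 higher gene, *Slc25a35* (log2 fold change 0.35, limma adjusted p = 0.0160). With that setting, 4236 of all 20871 genes were called in either direction, against 3132 in the main fit. The median of all genes rose to 0.09 there and that of the carrier genes to 0.10. The median of the carrier genes ran from -0.01 to 0.03 when 1 library was left out. Where an adjusted p was given, it ran over the alternatives from 0.00329 to 0.337 at the promoter of *Slc25a51*, from 0.0239 to 0.558 at that of *Slc25a12*, from 0.0135 to 0.337 at *Slc25a41* and from 0.0180 to 0.337 at *Slc25a34*. The cause of the other differences was not tested. No called value changed its sign under any alternative. Depth limits the peaks away from start sites most, with a median of 30 reads per library against 218 at promoters.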
